A study of Rattus norvegicus with 4 samples.

Results

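The glycolysis enzymes described here are 10 protein-coding genes, *Hk1*, *Hk2*, *Gpi*, *Pfkl*, *Pfkp*, *Aldoa*, *Pgk1*, *Eno1*, *Pkm* and *Ldha*, chosen by their symbols in the deposited gene table of a rat embryonic stem cell (ESC) study. All 10 were found among the 34773 genes of the table, and all 10 were among the 15028 genes that passed the filter on low counts. The study sequenced poly(A) RNA of wild-type cells (WT, a rat ESC line with GFP placed at *Rex1*) in 1 library, and of 3 *Thop1*-KO subclones (#1, #2 and #3), each in 1 library. The subclones, each 1 clone, were made from the same reporter line with CRISPR-Cas9. *Thop1* encodes thimet oligopeptidase, a zinc peptidase, and the comparison asks which transcripts differ after its loss. The study's methods describe growth of rat ESCs on feeder cells in medium with LIF and inhibitors of MEK and of GSK3, and give neither the age of the cultures nor a separate treatment for these libraries. The deposited design calls the cells haploid, whereas the study describes the parental line as diploid.

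Glycolysis splits glucose into pyruvate in a chain of cytosolic reactions that yield ATP and NADH, and lactate dehydrogenase then turns pyruvate into lactate and regenerates NAD. Hexokinase, phosphofructokinase and pyruvate kinase catalyse the steps that are in effect irreversible, and these are the points at which the pathway is mainly regulated. Pluripotent stem cells are known for a high rate of glycolysis, and many genes of the pathway are classical targets of the hypoxia-inducible factors and of MYC.

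The 2 hexokinase genes, which encode the enzymes that trap glucose in the cell, were higher in all 3 *Thop1*-KO subclones than in WT, *Hk1* by 2.70-fold and *Hk2* by 3.51-fold as the ratio of the subclone mean to WT. Both passed the test and were the only ones of the 10 enzymes that did in the comparison of 3 subclones with 1 WT library. The remaining 8 genes ranged in ratio from 0.667 for *Pfkp* to 1.66 for *Pgk1*, and none of them passed. The count of 2 called genes of 10, both higher and 0 lower, stands beside 13.8% of all genes tested that were called in either direction, 8.62% that were called higher and 5.17% that were called lower. The median log2 fold change was 0.08 over the 10 enzymes and 0.06 over all 15028 genes. Calls were made by the quasi-likelihood test of edgeR, with p-values adjusted by Benjamini-Hochberg over all genes tested and a threshold of 0.05, and this test called 1295 genes higher and 777 lower. After a correction of each library for gene length, that split was 1055 higher and 980 lower.

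Levels below are CPM, counts scaled to library size with edgeR's TMM factors, which follow 1 gene across libraries, and comparisons between genes use the deposited FPKM values, which are divided by gene length. The libraries held 15405499 counts on genes in WT and 17372676, 16525074 and 17936544 in #1, #2 and #3, and the enzymes had between 1178 and 234728 counts each in a library, so counting error was small beside the spread between subclones. *Thop1* was at 370 CPM in WT and at 110, 92.5 and 149 CPM in #1, #2 and #3 (log2 fold change -1.66 ± 0.29, SE, adjusted p = 0.0187). WT stood apart from the subclones over all genes, with a chi-square per degree of freedom of 125 to 184 between WT and a subclone and of 22.4 to 66.7 between subclones. Since WT has 1 library, the variance comes from the spread between the 3 subclones, which edgeR moderates across genes. Each standard error (SE) is the absolute log2 fold change divided by the square root of the test's F statistic. A difference of genotype cannot be told apart from a difference between the WT culture or library and the others. *Pou5f1*, the defining gene of pluripotent cells, was at 3889 to 4842 CPM in the 4 libraries. Of 13 pluripotent cell markers tested, 4 were called higher, *Esrrb*, *Tfcp2l1*, *Sall4* and *Fgf4*, and 2 lower, *Utf1* and *Dppa5*. These calls were 46.2% of the markers tested, beside 13.8% of all genes tested. The summed level of the pluripotent list was 10328 CPM in WT and 8269 to 10576 CPM in the subclones. *Pou5f1* and *Klf2* supplied most of that sum, at 4794 and 2214 CPM in WT, so it does not show the called changes. *Esrrb* was at 15.9 CPM in WT and 286 to 330 CPM in the subclones, and *Utf1* at 1566 CPM and 405 to 626 CPM.

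Members of the fibroblast list summed to 1913 CPM in WT and to 4185, 4557 and 4395 CPM in #1, #2 and #3. *Fn1*, which many cell types express, supplied most of that sum, at 1640 CPM in WT and 3764 to 3892 CPM in the subclones, and was the 1 called of the 8 fibroblast markers tested. DESeq2 called 2 of these 8 markers, and 3 had an unadjusted p under 0.05 in edgeR. *Col1a1* was at 190 CPM in WT and at 304, 555 and 374 CPM in #1, #2 and #3. *Col3a1* was at 6.39 CPM in WT and at 16.2, 80.0 and 36.9 CPM in #1, #2 and #3. Neither collagen gene was called by edgeR (adjusted p = 0.0921 and 0.0863). WT was below all 3 subclones for 6 of these 8 markers, above them for 1 and among them for 1. *Thy1*, *Dcn* and *Lum* had 0 counts in all 4 libraries. The species of the feeder cells is not given in the sources used here and reads of another species were not assessed, so neither the sums nor the 0 counts measure the feeder cells. The primitive endoderm list summed to 851 CPM in WT and to 1222, 1367 and 1784 CPM in #1, #2 and #3, with 0 of 6 markers called by edgeR, 0 by DESeq2 and limma, and 4 at an unadjusted p under 0.05 in edgeR. Nearly all of that sum was 1 gene, *Lama1*, at 848 CPM in WT and 1779 CPM in #3. WT was below all 3 subclones for 5 of these 6 markers and above them for 1. That 1 was *Gata4*, a defining gene of the list, with 17 counts in WT and 3, 0 and 3 in #1, #2 and #3. *Sox17*, another marker of the list, had 10 counts in WT and 34, 37 and 47 in #1, #2 and #3. The neural and mesodermal list summed to 15.9 CPM in WT and 7.62 to 10.6 CPM in the subclones, with *Nes* called lower of 3 tested. *Nes* was at 8.48 CPM in WT and at 0.36, 0.74 and 0.17 CPM in #1, #2 and #3. The others tested, *Eomes* and *Irx3*, had log2 fold changes of 0.26 and -0.10 and were not called, so the lower sum came from *Nes*. The part of these cell types in the enzyme levels was not tested. In bulk RNA a change in the share of cells of a type and a change in RNA per cell cannot be told apart.

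**Figure D1:**
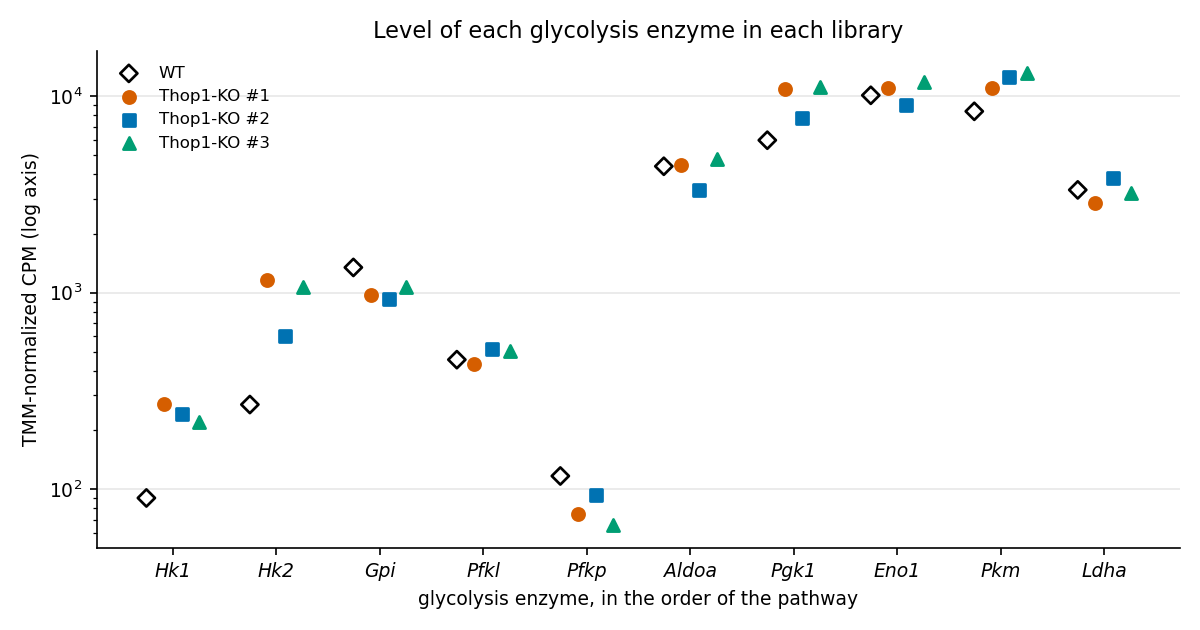
TMM-normalized CPM (log axis) of the 10 glycolysis enzymes in WT (open diamonds) and in *Thop1*-KO #1, #2 and #3 (filled symbols), 1 symbol per library. The WT symbol lies below the 3 subclones for *Hk1*, *Hk2*, *Pgk1* and *Pkm*, above them for *Gpi* and *Pfkp*, and among them for the other 4.

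Glucose is phosphorylated by hexokinase at the entry of the pathway. *Hk1*, the isozyme of most tissues, spans 31912262 to 31956649 of chromosome 20 (minus strand) in the deposited coordinates. It was at 90.2 CPM in WT and at 272, 241 and 220 CPM in #1, #2 and #3. The groups did not overlap, and the lowest subclone was 2.44 times the WT level. On the log2 scale the subclones exceeded WT in *Hk1* by 1.44 ± 0.26 (SE, adjusted p = 0.0203). *Hk2*, an inducible isozyme that is abundant in muscle, fat and many tumours, spans 113559427 to 113610243 of chromosome 4 (minus strand). It was at 270 CPM in WT and at 1161, 602 and 1074 CPM in #1, #2 and #3. Every subclone was again above WT, but #2 was at 2.23 times the WT level whereas #1 was at 4.30 and #3 at 3.98 times. On the log2 scale the subclones exceeded WT in *Hk2* by 1.81 ± 0.41 (SE, adjusted p = 0.0364), and its coefficient of variation among the subclones, 31.8%, was the largest of the 10 enzymes. With #3 left out, neither hexokinase passed (adjusted p = 0.0744 for *Hk1* and 0.0823 for *Hk2*), while the log2 fold changes were 1.51 and 1.71. Corrected for gene length, *Hk2* did not pass either (log2 fold change 1.42, adjusted p = 0.0814), and *Hk1* did (1.11, adjusted p = 0.0456). In limma on log2(FPKM + 1), *Hk2* narrowly missed the threshold (adjusted p = 0.0510) and *Hk1* passed (adjusted p = 0.0243).

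On the FPKM scale, *Hk1* and *Hk2* together reached 82.2 in WT and 313, 198 and 273 in #1, #2 and #3. *Hk2* made up 59.6% of that sum in WT and 67.8%, 55.3% and 70.7% in the subclones, so WT lay within the range of the subclones for the balance of the isozymes while it lay below all of them for the sum. *Hk3*, another hexokinase gene, had 9 counts in WT and 0 in each subclone.

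**Figure D2:**
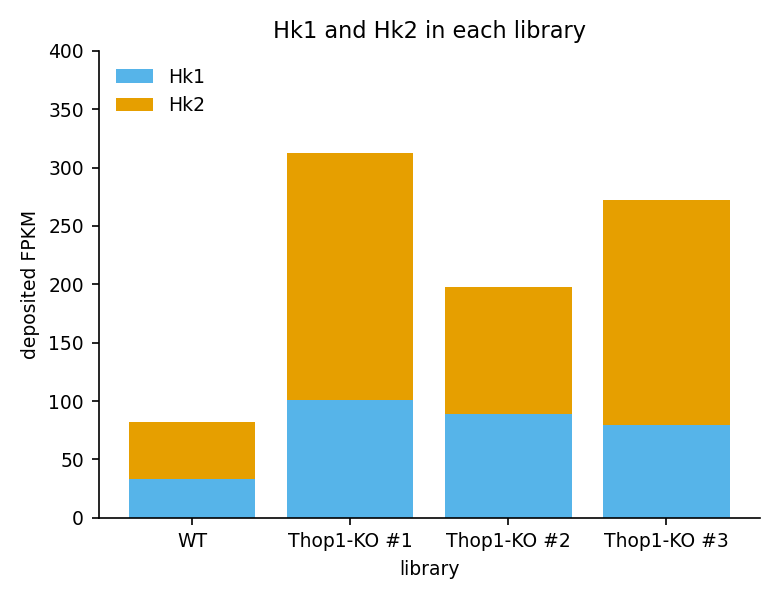
Deposited FPKM of *Hk1* (lower part of each bar) and *Hk2* (upper part) in the 4 libraries, 1 bar per library and without error bars, since each bar is 1 library. The sum is 82.2 in WT and 198 to 313 in the subclones, and *Hk2* holds 55.3% to 70.7% of it in every library.

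The promoters of the called genes *Hk1* and *Hk2* and of *Ldha*, which was not called, are shown because ACGTG differs in number among them. ACGTG is a form of the core of the hypoxia response element, and the other form, GCGTG, was not searched. Each is the run of 250 bases before a transcription start annotated by RefSeq in GRCr8, whose coordinates are not those of the deposited table, with each ACGTG or its reverse complement CACGT in capitals. The *Hk1* window is at chr20:30842073-30842322 on the minus strand, the *Hk2* window at chr4:116841276-116841525 on the minus strand and the *Ldha* window at chr1:106507842-106508091 on the plus strand.
Hk1: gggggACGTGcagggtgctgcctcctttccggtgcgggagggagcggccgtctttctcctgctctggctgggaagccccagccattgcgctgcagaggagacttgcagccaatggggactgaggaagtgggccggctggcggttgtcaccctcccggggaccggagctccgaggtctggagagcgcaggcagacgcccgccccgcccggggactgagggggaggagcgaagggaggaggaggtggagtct
Hk2: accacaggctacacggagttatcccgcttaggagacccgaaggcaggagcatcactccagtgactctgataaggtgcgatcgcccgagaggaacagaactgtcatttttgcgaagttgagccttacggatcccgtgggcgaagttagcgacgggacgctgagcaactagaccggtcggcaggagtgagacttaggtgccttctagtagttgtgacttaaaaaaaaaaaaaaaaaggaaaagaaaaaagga
Ldha: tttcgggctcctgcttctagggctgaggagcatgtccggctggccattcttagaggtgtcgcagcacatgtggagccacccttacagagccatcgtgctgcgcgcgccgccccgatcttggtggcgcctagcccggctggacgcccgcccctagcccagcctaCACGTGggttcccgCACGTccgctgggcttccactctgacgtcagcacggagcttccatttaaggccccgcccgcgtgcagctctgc
*Hk1* held 1 match in this window and 0 in the window of its second annotated start, and *Hk2* held 0. *Ldha* held 2 separate stretches, of which 1 is the E-box CACGTG, a palindrome that contains ACGTG on both strands. RefSeq windows were found for 9 of the 10 enzymes, with 13 windows in all. Of these windows, 3 held ACGTG, those of *Hk1* (as shown), *Ldha* and 1 of 3 starts of *Aldoa*. Among all 33469 rat windows of this length, 16.6% held ACGTG on either strand and 5.59% held CACGTG. Outside the 10 enzymes, the window of *Slc16a1*, a transporter gene called higher and described below, held 1 CACGTG. Whether ACGTG goes with the calls was not tested. A match says only that these letters are present, and no match says only that they are not in this window.

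Glucose 6-phosphate is turned into fructose 6-phosphate by *Gpi*, glucose-6-phosphate isomerase, at 90063411 to 90091287 of chromosome 1 (minus strand). *Gpi* was at 1344 CPM in WT and at 976, 923 and 1069 CPM in #1, #2 and #3. All 3 subclones were below WT and close to each other, with a coefficient of variation of 7.48%, the smallest of the 10 enzymes. On the log2 scale the difference was -0.44 ± 0.20 (SE, adjusted p = 0.168), and *Gpi* was not called.

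Phosphofructokinase commits the sugar to glycolysis, and 2 of its subunit genes are among the 10 enzymes. *Pfkl*, the liver-type subunit, at 11393877 to 11415882 of chromosome 20 (plus strand), was at 456 CPM in WT and at 431, 516 and 506 CPM in #1, #2 and #3. WT lay between the subclones, and on the log2 scale the difference was 0.09 ± 0.22 (SE, adjusted p = 0.809). *Pfkp*, the platelet-type subunit, at 68511064 to 68559471 of chromosome 17 (minus strand), was at 117 CPM in WT and at 74.4, 93.6 and 65.6 CPM in the subclones. Here WT was above all 3, with a difference on the log2 scale of -0.59 ± 0.28 (SE, adjusted p = 0.186). With #2 left out, a fit that called many more genes in all, *Pfkp* passed (log2 fold change -0.74, adjusted p = 0.0190). It stayed uncalled in the other 12 of 13 alternative fits, among them DESeq2 (adjusted p = 0.241). Of the summed FPKM of *Pfkl*, *Pfkp* and the muscle-type *Pfkm*, *Pfkl* held 74.2% in WT and 78.2%, 79.2% and 82.1% in #1, #2 and #3, and *Pfkp* held 23.2% in WT and 16.5%, 17.6% and 13.0%. The shares of the 2 subunits thus lay outside the range of the subclones in WT, *Pfkl* below it and *Pfkp* above it, by a description of 4 libraries with no test.

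*Aldoa*, the aldolase that cleaves fructose 1,6-bisphosphate into 2 triose phosphates, spans 198228387 to 198233588 of chromosome 1 (minus strand). It was at 4398 CPM in WT and at 4450, 3321 and 4816 CPM in #1, #2 and #3. Only #2 was well below WT, and on the log2 scale the difference was -0.07 ± 0.24 (SE, adjusted p = 0.866). *Aldoa* supplied 97.2% to 99.0% of the summed FPKM of the aldolase genes in every library, so the other aldolases were minor.

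The next enzymes carry the payoff phase, in which ATP is made. *Pgk1*, phosphoglycerate kinase, which makes the first ATP of that phase, spans 77263359 to 77279367 of chromosome X (plus strand). It was at 5969 CPM in WT and at 10914, 7746 and 11080 CPM in #1, #2 and #3. All 3 subclones were above WT, #1 and #3 at 1.83 and 1.86 times its level and #2 nearest to it. On the log2 scale the difference was 0.73 ± 0.25 (SE, adjusted p = 0.0978), so *Pgk1* was not called. It passed with library size as the only scaling (log2 fold change 0.79, adjusted p = 0.0469) and with #2 left out (0.88, adjusted p = 0.00126). In the other 11 of 13 alternative fits *Pgk1* stayed uncalled, among them DESeq2 (adjusted p = 0.107).

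*Eno1*, enolase, which forms phosphoenolpyruvate, spans 167288223 to 167299609 of chromosome 5 (plus strand). It was at 10101 CPM in WT and at 10966, 8994 and 11843 CPM in #1, #2 and #3. WT lay within the subclones, with #2 below it and the other 2 above, and on the log2 scale the difference was 0.07 ± 0.21 (SE, adjusted p = 0.834). *Eno1* made up at least 99.9% of the summed FPKM of the enolase genes in each library. It had the highest FPKM of the 10 enzymes in WT, 5270.

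*Pkm*, pyruvate kinase, which makes the second ATP and pyruvate, spans 64481172 to 64502722 of chromosome 8 (plus strand). It was at 8372 CPM in WT and at 11017, 12471 and 13064 CPM in #1, #2 and #3. The groups did not overlap, and the subclones varied little, with a coefficient of variation of 8.65%. On the log2 scale the difference was 0.54 ± 0.19 (SE, adjusted p = 0.0944), and *Pkm* was not called. It passed with #2 left out (0.53, adjusted p = 0.0286). In the other 12 of 13 alternative fits *Pkm* stayed uncalled, among them DESeq2 (adjusted p = 0.209). The counts are per gene and do not separate the M1 and M2 splice forms. *Pklr*, the liver and red cell pyruvate kinase, had 0 counts in all 4 libraries.

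*Ldha*, the lactate dehydrogenase subunit that favours the formation of lactate, spans 102900286 to 102909707 of chromosome 1 (plus strand). It was at 3334 CPM in WT and at 2852, 3823 and 3227 CPM in #1, #2 and #3. The highest and lowest libraries were both subclones, and on the log2 scale the difference was -0.01 ± 0.22 (SE, adjusted p = 0.969). *Ldha* held 74.3% of the summed FPKM of *Ldha* and *Ldhb* in WT and 53.6%, 74.8% and 61.3% in #1, #2 and #3. *Ldhb*, the subunit that favours pyruvate, was at 967 CPM in WT and at 2070, 1076 and 1705 CPM in the subclones, and it was not called (log2 fold change 0.74 ± 0.37, SE, adjusted p = 0.201). In this ratio #2 was therefore next to WT, while #1 and #3 were lower.

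On the FPKM scale, *Eno1*, *Pkm* and *Pgk1* took the first 3 places in every library, in an order that differed between libraries, and their FPKM values ran from 3478 to 6402. *Aldoa* and *Ldha* came next, at 1770 to 2915 FPKM, and exchanged places in #2. *Gpi* held the sixth place in all 4 libraries, at 453 to 658 FPKM. The 4 genes of the hexokinase and phosphofructokinase steps were the lowest, at 28.4 to 212 FPKM. Within them the order differed between WT and the subclones, where *Hk1* was last of the 10 in WT (33.2 FPKM) and *Pfkp* was last in each subclone (28.4 to 41.1 FPKM). Among the subclones the means of *Eno1*, *Pkm* and *Pgk1* were 5520 ± 733, 5605 ± 438 and 5766 ± 1081 FPKM (SD, n = 3), so these neighbours did not differ beyond their spread, nor did *Hk2* at 171 ± 54.5 and *Pfkl* at 173 ± 15.6 FPKM.

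Together the 10 enzymes drew 3.32% of all counts on genes in WT and 4.16%, 4.14% and 4.70% in #1, #2 and #3. Their summed level was 34450 CPM in WT and 43112, 38731 and 46965 CPM in the subclones, and most of it came from *Eno1*, *Pkm* and *Pgk1*. WT lay outside the range of the subclones for 6 of the 10 enzymes, below it for 4 and above it for 2. Over all genes tested, WT lay outside that range for 75.7%. The share of 6 in 10 was thus no higher than in the background.

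The subclones themselves differed. #2 was the lowest of the 3 for *Hk2*, *Gpi*, *Aldoa*, *Pgk1* and *Eno1*, and the highest for *Pfkl*, *Pfkp* and *Ldha*. #3 was the highest for 5 enzymes and the lowest for 2, and #1 was the highest for 2 and the lowest for 3. The ratio of the highest to the lowest subclone ran from 1.16 for *Gpi* to 1.93 for *Hk2*. With #2 left out, edgeR called 5 of the 10 enzymes, *Hk1*, *Hk2*, *Pgk1* and *Pkm* higher and *Pfkp* lower, and 5572 genes in all. With #3 left out it called 0 of the 10, of which 2 had an unadjusted p-value under 0.05, and 457 genes in all. With #1 left out it called 2 of 10 and 2022 genes in all.

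**Figure D3:**
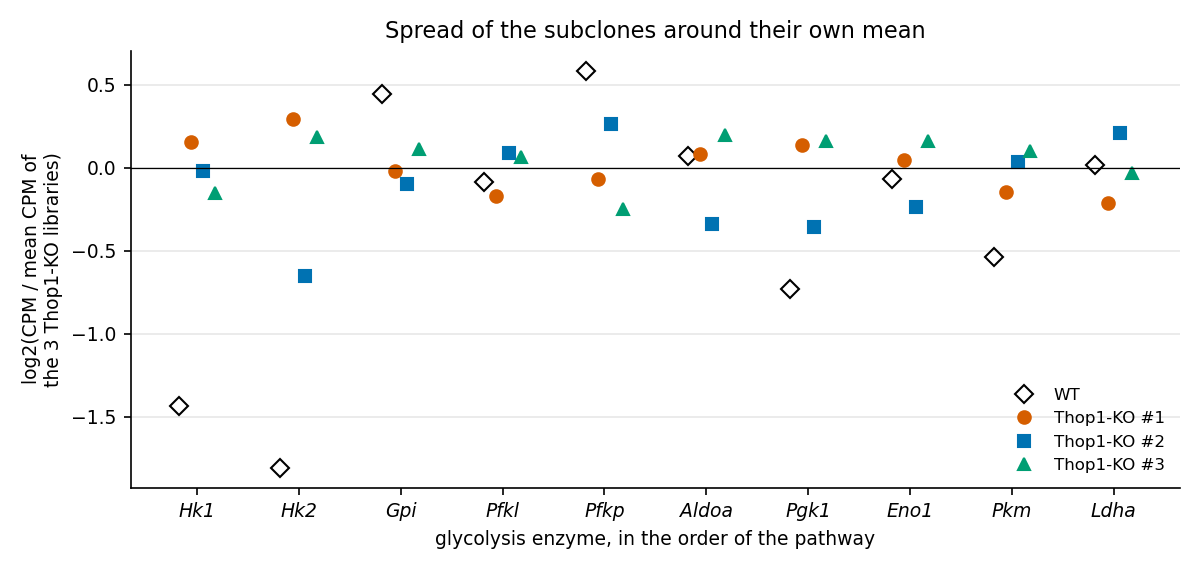
The log2 ratio of each library's CPM to the mean CPM of the 3 *Thop1*-KO libraries, for the 10 enzymes in pathway order, 1 symbol per library. WT (open diamonds) lies 1.44 below the mean for *Hk1* and 1.81 below it for *Hk2*, and #2 (squares) departs most from the other subclones for *Hk2*, at -0.65.

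The table also lists 8 entries described as copies of 5 of the enzymes, 4 of them annotated as pseudogenes, whose reads may be hard to assign to the right copy. How reads with several matches were counted is not given in the sources used here. *Pkm* has 3 such entries, of which LOC100364062, a pseudogene on chromosome 20, was at 66.0 CPM in WT and at 377, 445 and 467 CPM in #1, #2 and #3 (log2 fold change 2.70 ± 0.28, SE, adjusted p = 0.00692). AABR07044711.1, a second *Pkm* copy on the same chromosome, was at 526 CPM in WT and at 254, 312 and 416 CPM in the subclones, and it was not called (log2 fold change -0.69 ± 0.30, SE, adjusted p = 0.155). The third, an entry that the authors added on chromosome 9 from 98380765 to 98384064 (minus strand), had 151 counts in WT and 11, 29 and 17 counts in the subclones and was called lower (log2 fold change -3.22 ± 0.54, SE, adjusted p = 0.0171).

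RGD1562690, a processed pseudogene of *Ldha* on chromosome 8, had 164 counts in WT and 1040, 1436 and 1248 counts in #1, #2 and #3 (log2 fold change 2.68 ± 0.33, SE, adjusted p = 0.00813). *Ldha* itself did not pass, as given above. The *Eno1* pseudogenes RGD1563294 and LOC685431 had log2 fold changes of -0.82 and 0.85 and were not called (adjusted p = 0.0661 and 0.0783). Of the 8 copies, 2 were called higher and 1 lower. The copies drew between 5.42% and 6.71% of the summed *Pkm* level and at most 2.13% of the summed *Ldha* level. When the counts of each copy were added to its enzyme, the log2 fold changes were 0.53 for *Pkm*, 0.05 for *Eno1* and 0.01 for *Ldha*, and the same 2 hexokinase genes, which have no such entry, were called.

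**Figure D4:**
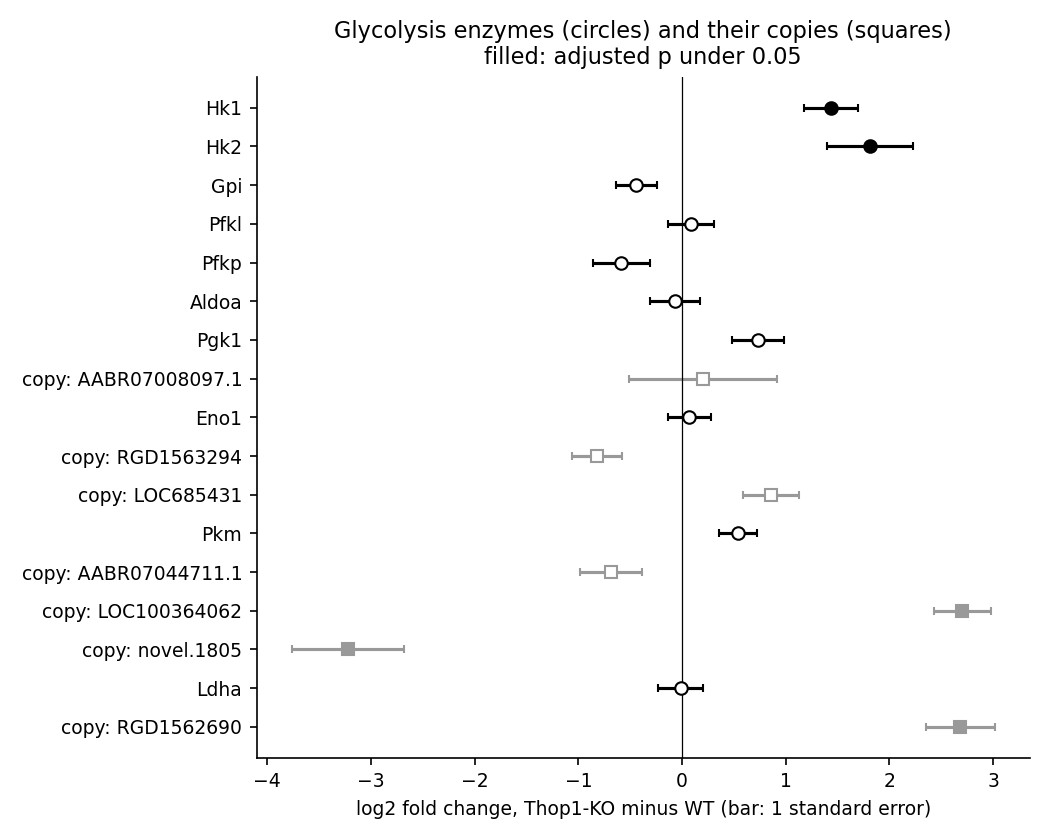
The log2 fold change of *Thop1*-KO over WT with 1 standard error (bars) for the 10 enzymes (circles) and the 7 copies with more than 3 counts in WT (squares), filled where the adjusted p-value was under 0.05. The copies of *Pkm* and *Ldha* at 2.70 and 2.68 lie far from their parent genes at 0.54 and -0.01.

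Symbols for the enzymes between aldolase and *Pgk1* could not be read as single genes. *Tpi1*, triose phosphate isomerase, was called higher at 10.2 CPM in WT and 31.9, 34.2 and 26.5 CPM in #1, #2 and #3 (log2 fold change 1.60 ± 0.34, SE, adjusted p = 0.0297). Beside it the table has LOC100911515, a triosephosphate isomerase-like entry with 1358 counts in WT and 1743, 2303 and 2694 counts in the subclones, more than the 151 to 604 counts of *Tpi1*. No entry has the symbol *Gapdh*, and 2 entries on chromosomes 4 and 5 share the symbol LOC108351137 and a description as glyceraldehyde-3-phosphate dehydrogenase. The entry on chromosome 4 had 54784 to 67174 counts and a log2 fold change of -0.39 (adjusted p = 0.181), and the entry on chromosome 5 had 9037 to 23490 counts and a log2 fold change of 1.06 (adjusted p = 0.0270). Entries that share a symbol or description may share reads, so the separate values of these entries are uncertain.

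Of 94 other genes of the pathway and its branches, 75 were tested and 10 were called, 7 higher and 3 lower, or 13.3% of those tested, beside the 13.8% of all genes. Their median log2 fold change was 0.17. Among 13 other enzymes of the same steps, found by symbol, *Tpi1* was the 1 called gene, and its separate value is uncertain as given above. The entries LOC108351137 and LOC100911515 were not in this list. *Aldoc*, the brain-type aldolase, was not called (log2 fold change 1.34 ± 0.40, SE, adjusted p = 0.0708). It passed in DESeq2 (adjusted p = 0.00751), which called 3 of these 13 genes, and in edgeR with library size as the only scaling (0.0477) and with #2 left out (0.000537).

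Among 6 transport genes tested, *Slc16a1*, which encodes the monocarboxylate transporter MCT1 that carries lactate and pyruvate across the plasma membrane, was called higher. It was at 22.9 CPM in WT and at 191, 151 and 182 CPM in #1, #2 and #3 (log2 fold change 2.93 ± 0.30, SE, adjusted p = 0.00693). The glucose transporter *Slc2a1* was at 816 CPM in WT and at 1646, 1125 and 1192 CPM in the subclones and was not called (log2 fold change 0.70 ± 0.28, SE, adjusted p = 0.135). The glucose transporter *Slc2a3* had 14 counts in WT and 4549, 189 and 493 counts in #1, #2 and #3. The 3 subclones were all above WT, but #1 was at 271 CPM against 10.7 and 27.4 CPM in #2 and #3, and *Slc2a3* was not called (log2 fold change 6.76 ± 2.41, SE, adjusted p = 0.103). It passed with #1 left out (4.33, adjusted p = 0.00790), with #2 left out (7.30, adjusted p = 0.000769) and in DESeq2 (adjusted p = 0.0175).

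*Pfkfb4*, 1 of 5 genes tested whose enzymes set fructose 2,6-bisphosphate, the activator of phosphofructokinase, had 0 counts in WT and 39, 76 and 92 counts in the subclones. The mean of the subclones was at least 19.4-fold higher than the level of 3 counts in the WT library, and the gene was called (adjusted p = 0.0152). *Pfkfb3* was at 35.8 CPM in WT and 74.4, 88.9 and 67.5 CPM in the subclones, and *Pfkfb1* at 32.7 CPM in WT and 15.9, 17.0 and 12.5 CPM. Neither of them was called (adjusted p = 0.0518 and 0.0601). Both passed in DESeq2 (adjusted p = 0.0133 for *Pfkfb3* and 0.0372 for *Pfkfb1*) and in edgeR with #2 left out (0.00822 and 0.00735), and *Pfkfb3* passed with no filter (0.0459).

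Downstream and in the branches, the called genes were lower in the subclones. *Dld*, a subunit of the pyruvate dehydrogenase complex that other dehydrogenases share, was at 53.7 CPM in WT and at 27.2, 25.3 and 28.1 CPM in #1, #2 and #3 (adjusted p = 0.0479) and was the 1 called of 11 genes of that complex and its regulators. *Dld* did not pass in 6 of 13 alternative fits. Among these were library size as the only scaling (adjusted p = 0.0576), no filter (0.0566) and limma on log2(FPKM + 1) (0.0666). *Pgls*, the lactonase of the pentose phosphate pathway, was at 92.9 CPM in WT and 31.0, 29.5 and 33.5 CPM in the subclones (log2 fold change -1.57 ± 0.24, SE, adjusted p = 0.0137), 1 of 6 tested there. *Gpd2*, the mitochondrial glycerol 3-phosphate dehydrogenase, was 1 of 8 genes of the glycogen, glycerol and serine branches (log2 fold change -2.00 ± 0.38, SE, adjusted p = 0.0240). Of 4 gluconeogenesis genes and 2 mitochondrial pyruvate carrier genes, edgeR called 0, and 0 of them had an unadjusted p-value under 0.05. DESeq2 and limma also called 0.

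Of 8 genes of the hypoxia-inducible factor axis, 2 were called higher, *Arnt*, the partner subunit of the factors (log2 fold change 1.74 ± 0.39, SE, adjusted p = 0.0338), and *Hif1an*, an asparagine hydroxylase that inhibits them (2.63 ± 0.43, SE, adjusted p = 0.0161). *Hif1a* was at 29.1 CPM in WT and at 19.7, 27.0 and 24.9 CPM in the subclones (adjusted p = 0.539). Of 12 hypoxia-inducible genes outside glycolysis, 2 were called higher, *Ddit4*, an inhibitor of mTOR signalling (log2 fold change 1.35 ± 0.33, SE, adjusted p = 0.0419), and *P4ha1*, a collagen prolyl hydroxylase (1.96 ± 0.40, SE, adjusted p = 0.0275). *Vegfa* and *Mxi1* were not called by edgeR (adjusted p = 0.0578 and 0.0657) but passed in DESeq2 (0.0191 and 0.0270), which called 4 of the 12. After the correction for gene length *Arnt* and *Ddit4* did not pass (adjusted p = 0.0548 and 0.0535). Of the 10 called genes, only *Slc16a1* and *Pfkfb4* passed when #3 was left out.

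**Figure D5:**
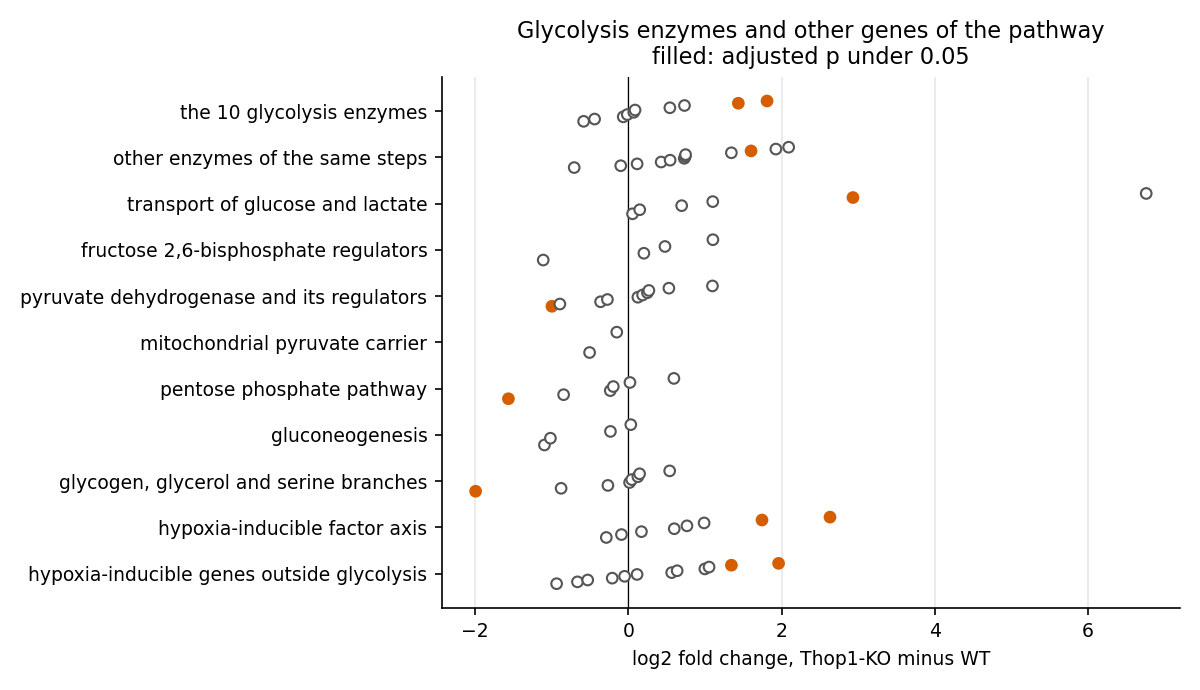
The log2 fold change of *Thop1*-KO over WT of the 10 glycolysis enzymes (top row) and of 72 other genes of the pathway, 1 symbol per gene and 1 row per list, filled where the adjusted p-value was under 0.05. Genes with 3 or fewer counts in WT are not drawn. The 2 filled symbols of the top row are *Hk1* and *Hk2*, and the filled symbol at 2.93 is *Slc16a1*.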

How the data were processed

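Poly(A) RNA of 1 WT library and 3 *Thop1*-KO libraries, each KO library from a separate subclone, was analysed. Reads had been cleaned with the FASTX toolkit before counting, per the study's methods. The submitters' processing notes name HISAT2 2.0.5 and featureCounts 1.5.0-p3. The genome build, the strand setting and the treatment of reads with several matches are not given in the sources used here. The authors deposited raw counts per gene, which were tested here, and FPKM values, which were deposited already divided by gene length and a factor per library and were used only for comparisons between genes. No deposited column of sample values went unused. Every sample was matched to its column by title.

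The counts went into edgeR 4.0.16 (R 4.3.3): filterByExpr with a minimum count of 10, TMM factors, and a two-sided quasi-likelihood test. P-values of 15028 genes were adjusted by Benjamini-Hochberg, and genes were called at 0.05. The replicates are separate subclones, and WT has 1 library, so p-values rest on the spread between 3 subclones, moderated across genes. The library totals ran from 15405499 to 17936544. Fold changes against a library at 0 counts were computed against 3 counts in that library. No pair of libraries agreed within counting noise.

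The 10 enzymes and the gene lists were chosen with earlier results of these data known. All 10 enzymes are given in full, and from each other list the counts called and up to 4 genes with the smallest p-values. The other isozymes set beside an enzyme, *Hif1a*, *Pou5f1*, *Klf2*, *Utf1*, *Dppa5*, *Thy1*, *Dcn* and *Lum* are outside that rule and were named after their values were seen. Copies were found by gene description. Promoter windows came from RefSeq (GRCr8), cut to 250 bases before the start. They were searched on both strands for ACGTG, a form of the core of the hypoxia response element, and for CACGTG, but not for GCGTG. *Pgk1* has no window in that table.

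Alternatives were other scalings (median-ratio factors, upper quartile, library size only), DESeq2 1.42.0, no filter, at least 10 counts in every library, calls that also needed a fold change of 2, each gene's length corrected for by loess (span 0.3), each subclone left out in turn, and limma 3.58.1 on log2 FPKM with a pseudocount of 1 or of 0.1. Adding the counts of copies to their enzyme was chosen after seeing the data. Figures were made with matplotlib 3.10.9 in Python 3.11.15. The insertion screen and the qPCR and protein experiments of the study were not analysed here.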

Additional observations from a re-analysis of the deposited data

How the results depend on the processing

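No paired analysis was possible because WT has 1 library. Of the 10 enzymes, 2 were called by edgeR under every scaling and filter tried except library size only, which called 3. DESeq2 also called 2, limma called 1 on log2(FPKM + 1) and 1 on log2(FPKM + 0.1), where *Hk2* had an adjusted p of 0.0510 and 0.0521, and the correction for gene length called 1. Leaving out 1 subclone gave 0 to 5 enzymes, 457 to 5572 genes in all and 2 to 32 other pathway genes, lowest without #3 and highest without #2. DESeq2 called 17 other pathway genes in place of 10. The cause was not tested.

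The correction for gene length moved the median log2 fold change of all genes by -0.16. Small differences that were not called turned sign in some fits. With the upper quartile they were -0.0095 for *Pfkl*, -0.0338 for *Eno1* and -0.0749 for *Pc*. For *Ldha* the value was 0.0623 with library size only, 0.0088 with no filter and 0.0114 with copies added. With the correction for gene length they were -0.24 for *Pfkl*, -0.15 for *Eno1*, 0.026 for *Mpc2*, 0.0606 for *Mpc1* and -0.34 for *Pc*. Leaving out 1 subclone gave -0.1786 to 0.0761 for *Aldoa* (above 0 without #2), -0.0172 to 0.1761 for *Eno1* (below 0 without #3), -0.1326 to 0.0905 for *Ldha* (below 0 only without #2), -0.0564 to 0.1795 for *Pc* (above 0 only without #2) and -0.0053 to 0.0741 for *Fbp2* (above 0 without #1, not tested without #2). Over 13 alternatives *Hk1* ranged from 1.11 to 1.51 and *Hk2* from 1.42 to 2.05 on the log2 scale. Each enzyme had 1178 or more counts in a library, and WT had 1 library in every fit.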
